A study of Mus musculus with 12 samples.

Results

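The genes described here are 10 members of the Nrf2 antioxidant pathway, chosen by name, of the 54532 genes counted in whole mouse kidneys. They are the transcription factor gene *Nfe2l2*, its inhibitor *Keap1*, and 8 genes that are known Nrf2 targets: *Nqo1*, *Hmox1*, *Osgin1*, *Gclc*, *Gclm*, *Slc7a11*, *Txnrd1* and *Srxn1*. Each name matched 1 row of the table, and all 10 were among the 24642 genes with enough reads to be tested. Kidneys came from C57BL/6 mice (C57BL/6 J by the study's methods) aged 18 days, 3 mice in each of 4 groups. Every mouse carried 1 hypomorphic missense *Pkd1* RC allele, the controls included, and a floxed second *Pkd1* allele. The 6 cystic mice also carried Ksp-Cre, a Cre transgene driven by the promoter of a kidney tubule cadherin, so that their tubules were *Pkd1* RC/-, whereas the 6 noncystic mice had no Cre (*Pkd1* RC/+). Cells in which Ksp-Cre is not active keep the floxed allele, and whole kidneys mix them with the deleted tubules. Within each of these, 3 mice were *Pkd2* +/+ and 3 were *Pkd2* Δ17/Δ17, the latter lacking the miR-17 binding motif of the *Pkd2* 3′-UTR after CRISPR/Cas9 editing. The design asks how cystic disease changes the kidney transcriptome and what the loss of this motif does in noncystic and in cystic kidneys.

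Nrf2, the protein made from *Nfe2l2*, is a basic leucine zipper transcription factor. Keap1 binds it in the cytoplasm and presents it to a Cullin 3 ubiquitin ligase, which leads to its degradation. When oxidants or electrophiles modify Keap1, Nrf2 escapes, enters the nucleus, pairs with a small Maf protein and binds the antioxidant response element of genes that make glutathione, reduce thioredoxin and peroxiredoxins, detoxify quinones and break down haem. Much of this control is on the Nrf2 protein, which was not measured here. Several of the targets, among them *Hmox1*, *Slc7a11* and *Srxn1*, are also induced by other factors.

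The libraries held 18800307 to 24453033 reads counted on genes. *Pkd2* was at 194 to 219 CPM (counts scaled by library size) in noncystic *Pkd2* +/+ mice. It was at 271 to 286 in noncystic *Pkd2* Δ17/Δ17 mice, and at 213 to 233 and 307 to 337 in the corresponding cystic groups. The genotype labelled Δ17/Δ17 thus did not overlap with +/+ in either. Groups without overlap were found for 10.8% of all genes in noncystic and 19% in cystic kidneys. In noncystic kidneys no gene, *Pkd2* included, was higher with the deletion at an adjusted p under 0.05 (edgeR). The counts do not check the Cre deletion, since *Pkd1* reads were summed over the whole gene (50.4 to 81.6 CPM). The labels give no sex, and *Xist* was at 431 to 811 CPM in 6 libraries, 1 or 2 of each group, and at 5.47 to 7.74 CPM in the other 6. Markers of kidney tubules were abundant in every library. Summed proximal tubule markers were at 9439 to 11741 CPM in the noncystic mice, at 3232 to 4705 in cystic *Pkd2* +/+ mice and at 4361 to 5892 in cystic *Pkd2* Δ17/Δ17 mice. The sum of 9 macrophage markers was 167 to 211 CPM in noncystic mice, 466 to 630 in cystic *Pkd2* +/+ mice and 323 to 444 in cystic *Pkd2* Δ17/Δ17 mice. Markers of red blood cells were at 420 to 1063 CPM in the noncystic and at 200 to 353 in the cystic mice. Adrenal gland markers stood at 7.15 CPM or less in 10 libraries but at 52.0 in cystic mouse 27 and at 365 in cystic mouse 30, and the results below that change without these libraries are given with and without them.

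**Figure D1:**
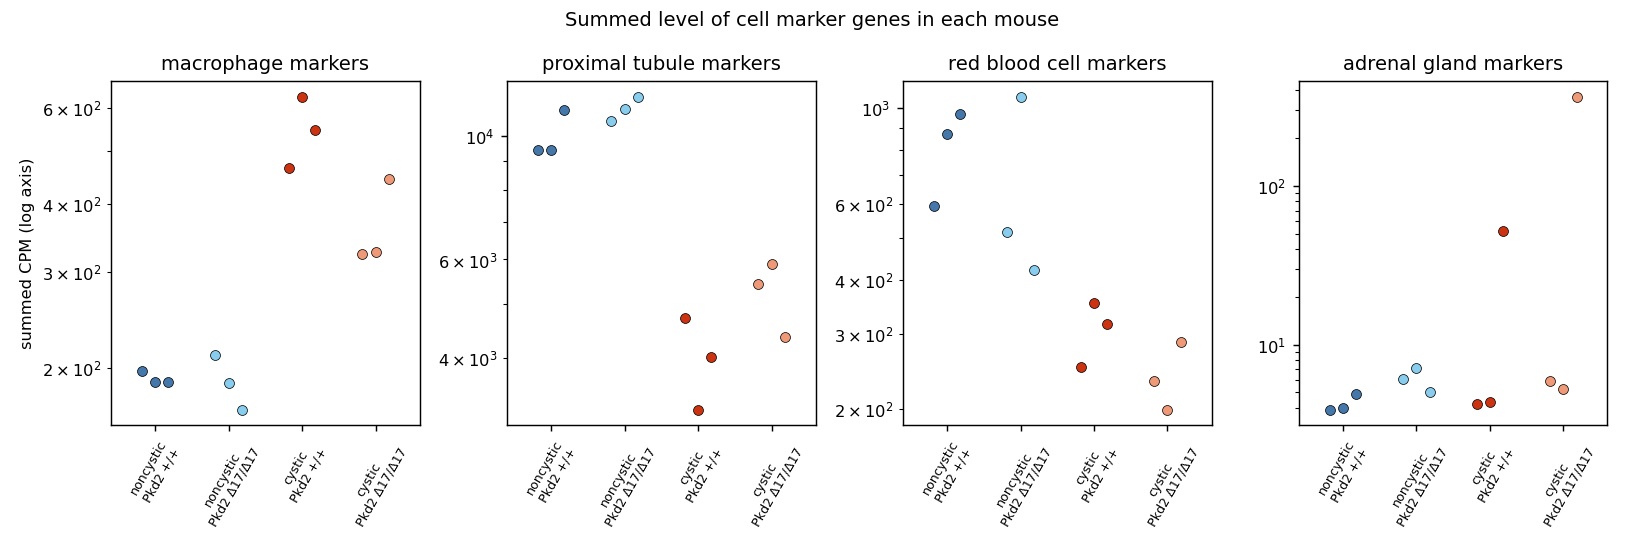
Summed CPM of marker genes (log axes) for macrophages, proximal tubule, red blood cells and adrenal gland in each of the 12 mice, with 1 point per mouse and colours for the 4 groups. Macrophage sums ran from 167 to 211 in the noncystic mice and from 323 to 630 in the cystic mice, and the adrenal sum was 52.0 in mouse 27 and 365 in mouse 30.

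The antioxidant response element is the DNA motif that Nrf2 binds, so its match in the promoters is shown first. The core searched was TGACNNNGC, on both strands, in the RefSeq promoter windows of GRCm38.p6 that span 250 bases before to 50 bases after each start site. Of the 10 genes, 8 had a promoter in that table and *Gclc* and *Hmox1* had none. The core was found for 4 of the 8, against 12.4% of the 32851 promoter windows of all genes and 14% of the 27025 gene symbols. The matches are printed with 10 bases on each side, 5′ to 3′ on the strand that reads the core, with the core in capitals:
Nfe2l2: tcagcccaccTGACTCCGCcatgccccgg
Gclm: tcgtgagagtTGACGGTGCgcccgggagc
Txnrd1: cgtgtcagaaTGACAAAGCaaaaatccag
Srxn1: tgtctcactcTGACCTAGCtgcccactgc
The *Nfe2l2* match (chr2:75704885-75704913, minus strand) began 240 bases before the start site and read along the gene. The *Gclm* match (chr3:122245413-122245441, minus strand) lay 134 bases before the start site, and the *Txnrd1* match (chr10:82859104-82859132, minus strand) 92 bases before one of its start sites. The *Srxn1* match (chr2:152105542-152105570, minus strand) lay 29 bases after the start site, and these last 3 read on the strand opposite to the gene. A match of the letters is not a binding site, and the windows are short, so elements farther upstream were not searched.

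In noncystic *Pkd2* +/+ kidneys the 10 genes differed widely in level. Per kilobase of annotated exon, *Gclc* was the highest with 42.2 to 45.4 CPM per kb, followed by *Gclm* with 38.1 to 40.2 and *Nfe2l2* with 33.4 to 35.0. *Srxn1* (19.1 to 20.5), *Txnrd1* (18.7 to 19.4) and *Nqo1* (18.2 to 19.2) overlapped with their neighbours in this order. The same was true of *Keap1* (10.1 to 10.49), *Osgin1* (9.77 to 10.6) and *Hmox1* (6.999 to 10.3). *Slc7a11*, which encodes the cystine-importing subunit of the cystine/glutamate exchanger, was the lowest with 0.0298 to 0.0573 CPM per kb, or 4 to 24 reads in each of the 12 libraries. At that depth its differences could not be resolved in any comparison, as the width of the intervals given below shows.

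Between cystic and noncystic *Pkd2* +/+ kidneys the pathway split. *Nfe2l2*, *Hmox1* and *Txnrd1* rose, *Gclm*, *Nqo1* and *Osgin1* fell, and the other 4 genes were not called. Thus 6 of the 10 passed the threshold (adjusted p under 0.05, edgeR quasi-likelihood test with Benjamini-Hochberg adjustment over all 24642 genes), where 31.1% of all genes did (16.9% higher and 14.2% lower). The median log2 fold change of the 10 was 0.16, and that of all genes 0.02. All values are in TMM-scaled CPM, so a change is relative to the bulk of the genes of a kidney, and in whole kidneys fewer cells of a type and less RNA per cell cannot be told apart.

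**Figure D2:**
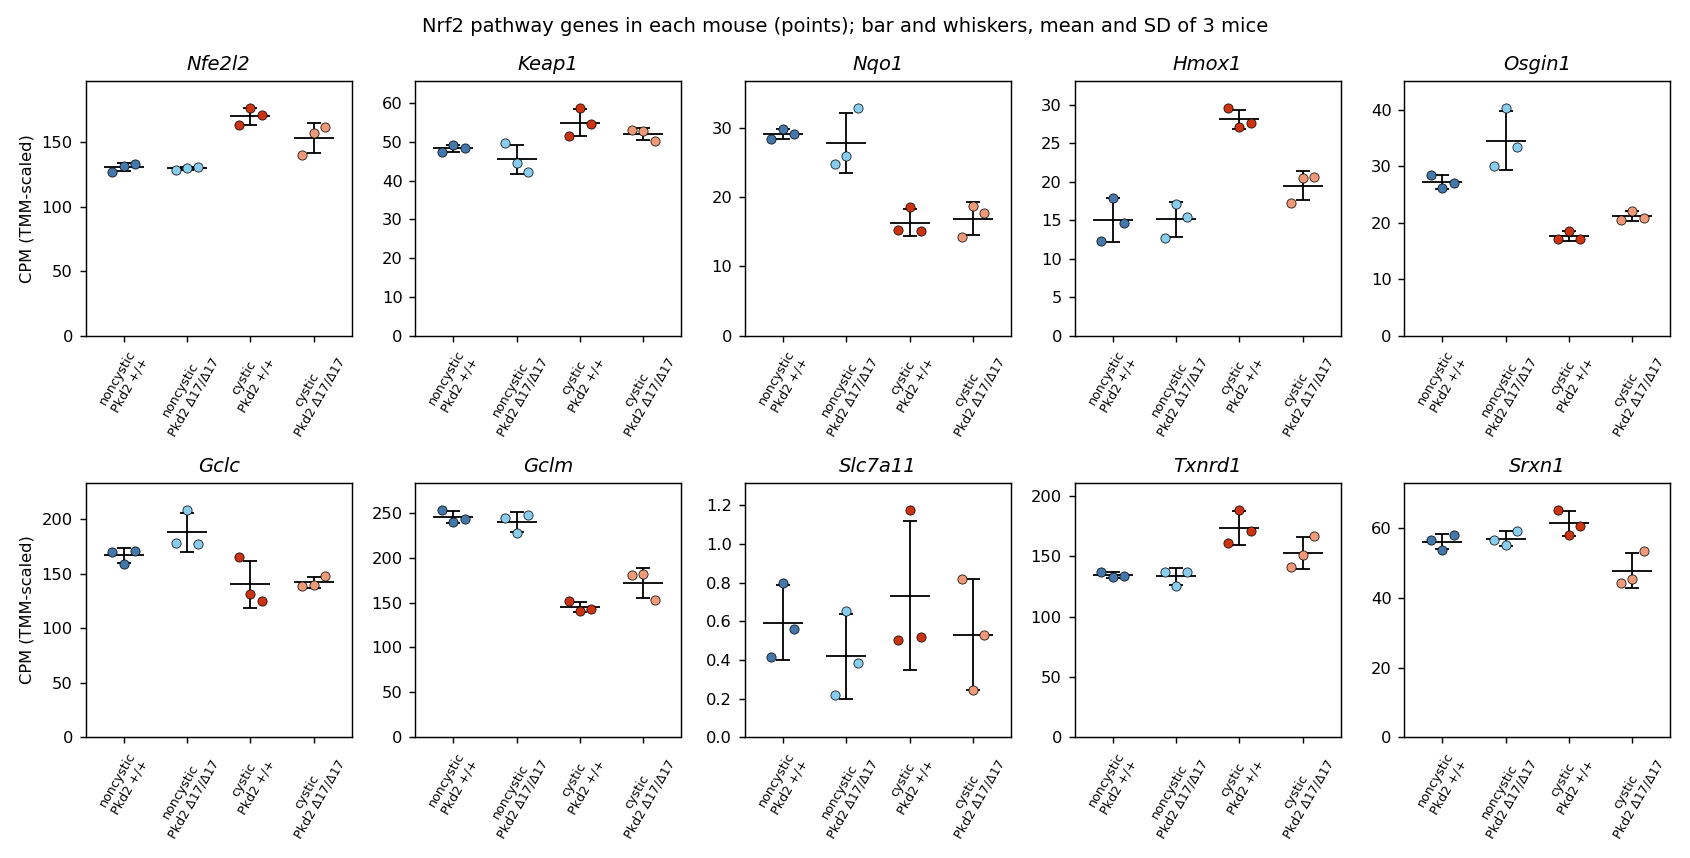
CPM (TMM-scaled) of each of the 10 genes in each mouse, with 1 point per mouse, and the mean and SD of the 3 mice of a group as bar and whiskers; every axis starts at 0. *Nfe2l2*, *Hmox1* and *Txnrd1* sit higher in all cystic *Pkd2* +/+ mice than in the noncystic mice of that genotype, *Nqo1*, *Osgin1* and *Gclm* sit lower, and *Slc7a11* overlaps between all groups.

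*Nfe2l2* (ENSMUSG00000015839, GRCm38 chr2:75675513-75704641, minus strand) was at 127, 131 and 133 CPM in the noncystic and at 163, 176 and 171 CPM in the cystic *Pkd2* +/+ mice. The groups did not overlap. The log2 fold change was 0.38 (SE 0.07, adjusted p = 0.000472, edgeR), a rise of 30.5%. Its inhibitor *Keap1* (ENSMUSG00000003308, chr9:21229730-21239361, minus strand) was at 47.4, 49.2 and 48.5 CPM against 51.6, 58.7 and 54.7 CPM. Those groups did not overlap either, but the log2 fold change of 0.19 (SE 0.08) was not called (adjusted p = 0.0928, edgeR). Of the *Keap1* exons, 10.9% overlap the antisense gene *Gm16754*, and as the strand setting of the counting is not stated its level is uncertain to that extent.

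*Hmox1* (ENSMUSG00000005413, chr8:75093621-75100589, plus strand), which encodes the inducible haem oxygenase, showed the largest rise of the 10. It was at 12.3, 18.0 and 14.7 CPM in the noncystic and at 29.6, 27.2 and 27.7 CPM in the cystic *Pkd2* +/+ mice, with no overlap. This was a 1.88-fold difference (log2 0.91, SE 0.14, adjusted p = 7.73e-05, edgeR). All 9 macrophage markers rose in the same comparison, with a median log2 fold change of 1.79, and none of them was at 0 in any library. All 6 red blood cell markers fell, with a median of -1.48. Their part in the *Hmox1* difference was not tested.

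*Nqo1* (ENSMUSG00000003849, chr8:107388225-107403206, minus strand) encodes a quinone reductase and is a widely used readout of Nrf2. It moved the other way. Its level was 28.3, 29.8 and 29.1 CPM in the noncystic and 15.2, 18.6 and 15.1 CPM in the cystic *Pkd2* +/+ mice. Every cystic mouse was below every noncystic one, and the level was 1.78-fold lower (log2 -0.84, SE 0.13, adjusted p = 9.36e-05, edgeR). *Osgin1* (ENSMUSG00000074063, chr8:119434124-119446256, plus strand), an oxidative stress-induced growth inhibitor, fell as well. It went from 28.5, 26.1 and 26.96 CPM to 17.1, 18.6 and 17.2 CPM, a 1.54-fold difference without overlap (log2 -0.62, SE 0.11, adjusted p = 0.000227, edgeR). All 10 proximal tubule markers fell in the same comparison, with a median log2 fold change of -1.21. Of 6 thick ascending limb and distal tubule markers 4 fell and 1 rose, and of 4 podocyte markers 3 fell and 1 rose. Of 6 collecting duct markers 2 rose and 1 fell. The part of these cells in the lower *Nqo1*, *Osgin1* and *Gclm* levels was not tested.

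Glutamate-cysteine ligase, the rate-limiting enzyme of glutathione synthesis, has a modifier and a catalytic subunit, of which the modifier was called. The modifier subunit *Gclm* (ENSMUSG00000028124, chr3:122245557-122270732, plus strand) was at 253, 240 and 243 CPM in the noncystic and at 151, 141 and 143 CPM in the cystic *Pkd2* +/+ mice. It was 1.69-fold lower (log2 -0.76, SE 0.08, adjusted p = 1.95e-06, edgeR), with no overlap and the smallest adjusted p of the 10 genes. Its exons overlap *Gm17494* on the other strand (4.7% of their length) and the pseudogene *Gm6061* on the same strand (3.88%). The catalytic subunit *Gclc* (ENSMUSG00000032350, chr9:77754535-77794485, plus strand) was at 170, 159 and 171 CPM against 165, 131 and 125 CPM. Cystic mouse 25 lay among the noncystic mice, and the log2 fold change of -0.25 (SE 0.10) was not called (adjusted p = 0.0683, edgeR). Without mouse 25 it was -0.38 and called (adjusted p = 0.00332, edgeR), and leaving out mouse 20, 22 or 23 also brought it past the threshold (9 of 21 alternatives in all, with adjusted p from 0.00332 to 0.561).

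*Txnrd1* (ENSMUSG00000020250, chr10:82833951-82897712, plus strand), the cytosolic thioredoxin reductase, was at 137, 133 and 134 CPM in the noncystic and at 161, 188 and 171 CPM in the cystic *Pkd2* +/+ mice. The groups did not overlap, and the log2 fold change was 0.37 (SE 0.08, adjusted p = 0.00213, edgeR). *Srxn1* (ENSMUSG00000032802, chr2:152105516-152111376, plus strand) encodes sulfiredoxin, which repairs overoxidised peroxiredoxins. It was at 56.7, 53.8 and 57.9 CPM against 65.2, 58.2 and 60.7 CPM, a log2 fold change of 0.13 (SE 0.08) that was not called (adjusted p = 0.281, edgeR) although the groups did not overlap. *Slc7a11* (ENSMUSG00000027737, chr3:49892526-50443614, minus strand) had a log2 fold change of 0.30 with a 95% interval from -0.80 to 1.40. Of the 10 genes, 8 had groups without overlap, against 41.7% of all genes.

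The 6 calls passed the threshold in every one of the 21 alternatives. Scaling by library totals in place of TMM moved the median gene up by 0.16 in this comparison. With it *Keap1* (log2 0.34, adjusted p = 0.0018, edgeR) and *Srxn1* (log2 0.29, adjusted p = 0.0166, edgeR) were also called higher, which makes 5 higher and 3 lower in place of 3 and 3. The share of all genes called was 35.4% with library totals and 31.1% with TMM. Across the alternatives *Keap1* had adjusted p from 0.0018 to 0.289 and *Srxn1* from 0.0166 to 0.635.

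**Figure D3:**
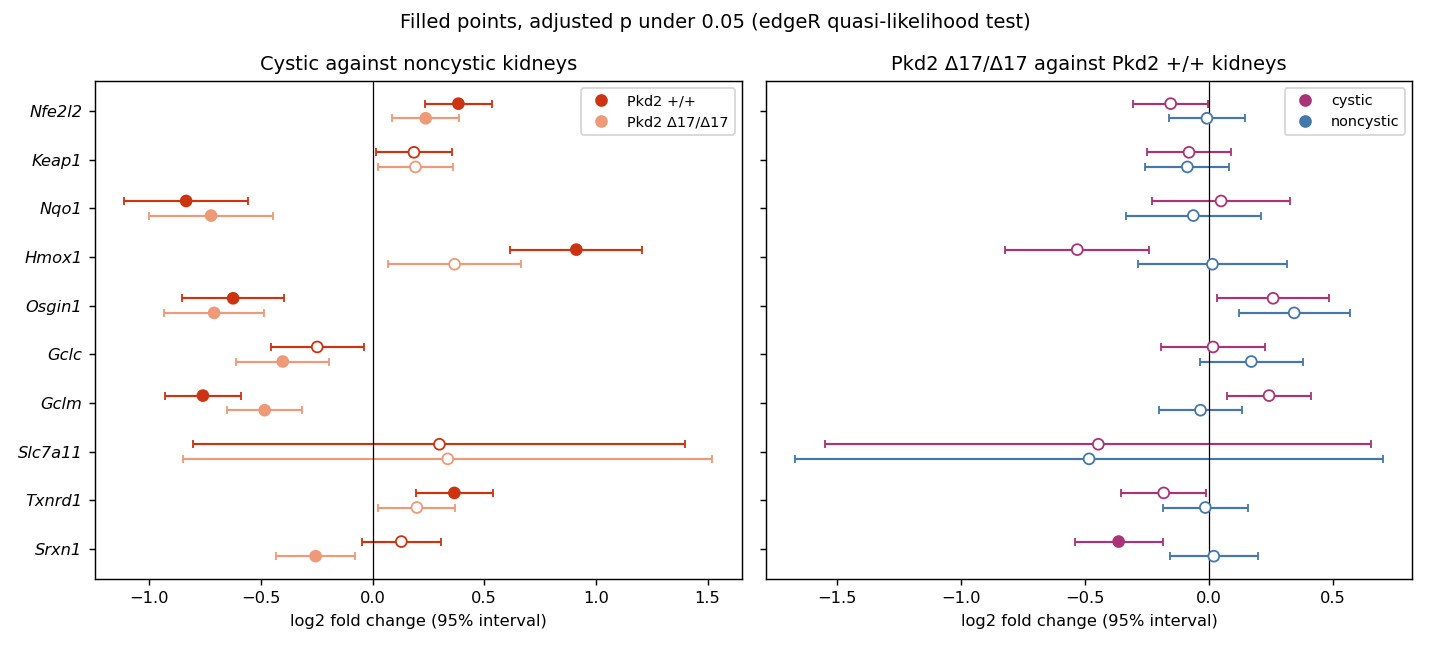
Log2 fold change of each gene with its 95% interval, on the left for cystic against noncystic kidneys of either *Pkd2* genotype, on the right for *Pkd2* Δ17/Δ17 against *Pkd2* +/+ in cystic and in noncystic kidneys; filled points passed an adjusted p of 0.05. *Gclm*, *Nqo1* and *Osgin1* are filled and left of 0 for both genotypes in the left panel, and *Srxn1* in cystic kidneys is the only filled point in the right panel.

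In mice with the *Pkd2* motif deleted, 1 of the 10 genes rose between noncystic and cystic kidneys and 5 fell. Across all genes 23% were called (12.8% higher and 10.2% lower). The 3 genes that fell in *Pkd2* +/+ mice fell here too. *Gclm* was at 245, 227 and 248 CPM in the noncystic and at 181, 181 and 153 CPM in the cystic *Pkd2* Δ17/Δ17 mice (log2 -0.48, SE 0.08, adjusted p = 0.000278, edgeR). *Nqo1* was at 24.7, 25.97 and 32.8 CPM against 14.2, 18.7 and 17.7 CPM (log2 -0.72, SE 0.13, adjusted p = 0.000583, edgeR). *Osgin1* was at 29.97, 40.3 and 33.3 CPM against 20.4, 22.1 and 20.8 CPM (log2 -0.71, SE 0.11, adjusted p = 0.000109, edgeR). Of the proximal tubule markers 9 of 10 fell in this comparison, with a median log2 fold change of -1.12. Of 6 thick ascending limb and distal tubule markers 2 fell and 1 rose, and 3 of 4 podocyte markers fell. The part of these cells was not tested. None of *Gclm*, *Nqo1* and *Osgin1* overlapped between the groups, and all 3 were called in each of the 21 alternatives.

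*Gclc* was also called lower in this genotype. It was at 178, 208 and 177 CPM in the noncystic and at 139, 140 and 148 CPM in the cystic mice (log2 -0.40, SE 0.10, adjusted p = 0.0063, edgeR), and 19 of 21 alternatives kept the call, the exceptions being both fits on library totals (adjusted p up to 0.0863). *Srxn1* fell from 56.6, 55.0 and 59.2 CPM to 44.2, 45.4 and 53.5 CPM, without overlap (log2 -0.26, SE 0.08, adjusted p = 0.0368, edgeR). That call was less stable. It was lost without mouse 22, 24, 28 or 29 (adjusted p from 0.0701 to 0.147, edgeR), in a fit on these groups alone (0.0596) and with library totals, where the log2 fold change was -0.10 (adjusted p = 0.457, edgeR). Over all alternatives its adjusted p ran from 0.00942 to 0.457.

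*Nfe2l2* was the 1 gene called higher, at 128, 130 and 131 CPM in the noncystic and 140, 157 and 162 CPM in the cystic *Pkd2* Δ17/Δ17 mice (log2 0.24, SE 0.07, adjusted p = 0.0226, edgeR). The groups did not overlap. The call was lost without mouse 22, 23, 24, 29 or 30 (adjusted p from 0.061 to 0.11, edgeR) and without both libraries with adrenal markers (log2 0.20, adjusted p = 0.14), and also with no filter on low counts (0.0508), and its adjusted p spanned 0.000537 to 0.14 across the alternatives. *Hmox1* was at 12.8, 17.2 and 15.4 CPM against 17.3, 20.5 and 20.7 CPM. Its log2 fold change of 0.37 (SE 0.14) was not called (adjusted p = 0.0732, edgeR), and the lowest cystic mouse differed little from the highest noncystic one. In the same comparison 8 of 9 macrophage markers were called higher (median log2 fold change 1.08). Of 6 red blood cell markers 5 were called lower (median -1.45). Their part in the *Hmox1* values was not tested. *Txnrd1* was at 137, 126 and 137 CPM against 141, 151 and 167 CPM, a log2 fold change of 0.20 that was not called (adjusted p = 0.0953, edgeR). *Keap1* had a log2 fold change of 0.19 (adjusted p = 0.101, edgeR), and *Slc7a11* one of 0.34 with a 95% interval from -0.85 to 1.52. With library totals, which moved the median gene up by 0.15, *Hmox1* (adjusted p = 0.0117, edgeR), *Keap1* (0.00252) and *Txnrd1* (0.00327) were called higher as well, so that 4 were higher and 3 lower in place of 1 and 5. The share of all genes called was 28.4% with library totals and 23% with TMM. Across the alternatives the adjusted p spanned 0.0108 to 0.282 for *Hmox1*, from 0.00225 to 0.326 for *Keap1* and from 0.00327 to 0.402 for *Txnrd1*. Of the 10 genes, 9 had groups without overlap, against 37.9% of all genes.

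Within cystic kidneys, the motif deletion changed 1 of the 10 genes, against 2.23% of all genes (1.19% higher and 1.04% lower). *Srxn1* was at 65.2, 58.2 and 60.7 CPM in the cystic *Pkd2* +/+ mice and at 44.2, 45.4 and 53.5 CPM in the cystic *Pkd2* Δ17/Δ17 mice. It was 1.29-fold lower without overlap (log2 -0.36, SE 0.08, adjusted p = 0.0317, edgeR). The call was lost without mouse 25 (adjusted p = 0.0727, edgeR), 27 (0.102), 28 (0.178) or 29 (0.155) and in a fit on the cystic groups alone (0.1), while 16 of 21 alternatives kept it, with adjusted p from 0.00327 upward.

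*Hmox1* had a larger difference with a wider error, from 29.6, 27.2 and 27.7 CPM to 17.3, 20.5 and 20.7 CPM. The groups did not overlap. The log2 fold change was -0.53 (SE 0.14), and the adjusted p of 0.0555 (edgeR) missed the threshold. It was past the threshold in 6 of 21 alternatives, namely DESeq2 (0.00799), no filter on low counts (0.00164), *Xist* as a covariate for sex (0.0361) and without mouse 19, 20 or 22, and the adjusted p ranged from 0.00164 to 0.256. The summed macrophage markers were lower in the same comparison, and 4 of the 9 were called lower (median log2 fold change -0.63). Their part in the *Hmox1* values was not tested.

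For the other genes no call was made in this comparison. *Gclm* went from 151, 141 and 143 CPM to 181, 181 and 153 CPM without overlap (log2 0.24, SE 0.08, adjusted p = 0.14, edgeR), and was called with DESeq2 (adjusted p = 0.0456) and without mouse 30 (0.0414). Its adjusted p ran from 0.0414 to 0.431 over the alternatives. *Osgin1* went from 17.1, 18.6 and 17.2 CPM to 20.4, 22.1 and 20.8 CPM, also without overlap (log2 0.26, SE 0.11, adjusted p = 0.268, edgeR). *Nfe2l2* had a log2 fold change of -0.15 (95% interval -0.30 to -0.0028, adjusted p = 0.339, edgeR) and *Txnrd1* one of -0.18 (95% interval -0.35 to -0.0098, adjusted p = 0.311, edgeR). The intervals were -0.23 to 0.33 for *Nqo1*, -0.19 to 0.23 for *Gclc*, -0.25 to 0.09 for *Keap1* and -1.55 to 0.66 for *Slc7a11*. Groups without overlap were found for 5 of the 10 genes, against 19% of all genes. This comparison and the first one share the cystic *Pkd2* +/+ mice, so that a high or low value in these mice moves both, in opposite directions.

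In noncystic kidneys, none of the 10 genes was called between *Pkd2* Δ17/Δ17 and *Pkd2* +/+ by edgeR, and none by DESeq2 or limma-trend. Of all genes 0.00406% were called, which is 1 gene, and 1555 had an unadjusted p under 0.05. Of the 10, only *Osgin1* had an unadjusted p below that (0.00473, adjusted p = 0.771, edgeR). It was at 28.5, 26.1 and 26.96 CPM in *Pkd2* +/+ and at 29.97, 40.3 and 33.3 CPM in *Pkd2* Δ17/Δ17 mice, without overlap (log2 0.34, 95% interval 0.12 to 0.57). *Gclc* did not overlap either (log2 0.17, 95% interval -0.04 to 0.38), and groups without overlap were seen for 10.8% of all genes. The 95% intervals of *Nfe2l2* (-0.16 to 0.14), *Txnrd1* (-0.19 to 0.16), *Srxn1* (-0.16 to 0.20) and *Gclm* (-0.20 to 0.14) reached no farther than about 0.2 on the log2 scale in either direction. Those of *Nqo1* (-0.33 to 0.21) and *Hmox1* (-0.29 to 0.32) are wider.

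Whether the cystic difference itself depended on the *Pkd2* genotype was tested as an interaction. None of the 10 genes was called by edgeR or DESeq2, and 0.0122% of all genes were (0.00812% higher and 0.00406% lower, 3 genes in all, with 2053 at an unadjusted p under 0.05). At an unadjusted p under 0.05 were 3 of the 10. The interaction was -0.38 (SE 0.12, adjusted p = 0.357, edgeR) for *Srxn1*, -0.55 (SE 0.20, adjusted p = 0.464) for *Hmox1* and 0.28 (SE 0.11, adjusted p = 0.525) for *Gclm*. The smaller *Hmox1* and *Gclm* differences in *Pkd2* Δ17/Δ17 mice were therefore not shown to differ from those in *Pkd2* +/+ mice after adjustment.

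Ratios of read counts between genes of the same library are free of the library scaling, and 3 were taken after the values of the genes had been seen. They are ratios of reads and not of molecules, since the genes differ in length. The *Gclc* to *Gclm* ratio was 0.68 ± 0.02 (SD, n = 3) in noncystic and 0.97 ± 0.11 (SD, n = 3) in cystic *Pkd2* +/+ kidneys, with ranges of 0.662 to 0.703 and 0.874 to 1.09. In *Pkd2* Δ17/Δ17 mice it was 0.79 ± 0.11 in noncystic and 0.84 ± 0.11 in cystic kidneys (SD, n = 3 each), and these ranges overlapped (0.714 to 0.916 and 0.767 to 0.967). The *Hmox1* to *Nqo1* ratio was 0.51 ± 0.09 and 0.55 ± 0.10 in the noncystic groups (*Pkd2* +/+ and Δ17/Δ17), 1.75 ± 0.25 in cystic *Pkd2* +/+ and 1.16 ± 0.06 in cystic *Pkd2* Δ17/Δ17 kidneys (SD, n = 3 each). The 3 levels did not overlap, with 0.433 to 0.662 in all noncystic mice, 1.10 to 1.22 in cystic *Pkd2* Δ17/Δ17 mice and 1.46 to 1.94 in cystic *Pkd2* +/+ mice. The *Nfe2l2* to *Keap1* ratio was 2.67 to 2.73 in noncystic and 3.001 to 3.16 in cystic *Pkd2* +/+ mice, and 2.58 to 3.08 and 2.63 to 3.22 in the *Pkd2* Δ17/Δ17 groups, which overlapped. With 3 mice against 3, a two-sided exact permutation test cannot go below p = 0.1, so no test was made on the ratios.

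**Figure D4:**
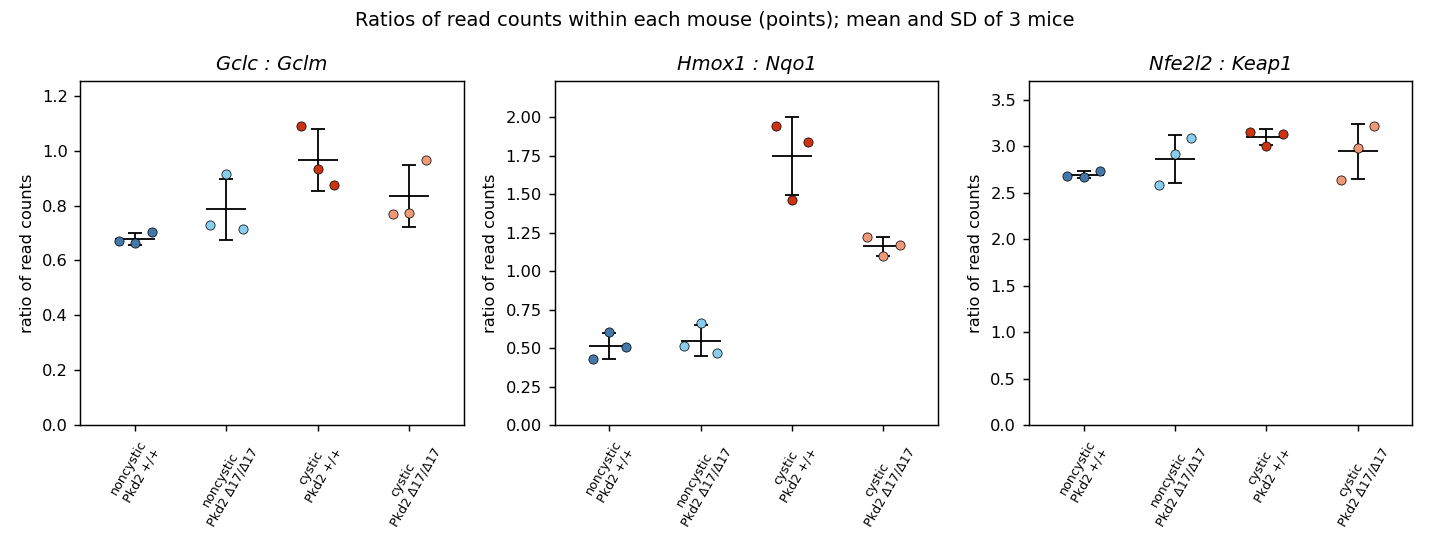
Ratio of read counts of *Gclc* to *Gclm*, *Hmox1* to *Nqo1* and *Nfe2l2* to *Keap1* within each mouse, with 1 point per mouse and the mean and SD of 3 mice per group; axes start at 0. The *Hmox1* to *Nqo1* ratio lies at 0.433 to 0.662 in the noncystic mice, at 1.10 to 1.22 in cystic *Pkd2* Δ17/Δ17 mice and at 1.46 to 1.94 in cystic *Pkd2* +/+ mice.

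The genes around the 10 were described by 6 lists of the same biology, in cystic against noncystic *Pkd2* +/+ kidneys first, where 31.1% of all genes were called (16.9% higher and 14.2% lower). Glutathione genes were mostly lower. Of 14 tested, 10 fell and 2 rose, and the median log2 fold change was -0.78. *Ggt1*, the γ-glutamyltransferase that breaks down extracellular glutathione, fell from 562 ± 14 to 248 ± 18 CPM (SD, n = 3), and the glutathione peroxidase *Gpx1* from 870 ± 35 to 528 ± 10 CPM. Glutathione synthetase (*Gss*) fell by 0.93 on the log2 scale and *Chac2*, a γ-glutamylcyclotransferase, by 0.997 (adjusted p = 5.82e-07 and 2.55e-06, edgeR). The *Gss* exons overlap 3 other genes on the opposite strand.

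Thioredoxin and peroxiredoxin genes showed 6 lower and none higher of 14, with a median of -0.25. The mitochondrial peroxiredoxin *Prdx3* fell from 183 ± 13 to 113 ± 4 CPM, and *Prdx5* by 0.84 on the log2 scale, with 19.1% of its exons shared with *Trmt112*. *Txn2*, the mitochondrial thioredoxin, and *Prdx6* fell by 0.47 and 0.40. *Txn1*, the cytosolic thioredoxin that the *Txnrd1* product reduces, is named here after its values were seen and was not called (log2 -0.23, SE 0.09, adjusted p = 0.0765, edgeR).

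Superoxide and peroxide genes moved both ways, and NADPH oxidase genes were on both sides. Of 10, 6 were lower and 4 higher. Catalase (*Cat*, 453 ± 48 to 219 ± 15 CPM), the superoxide dismutases *Sod2* (325 ± 31 to 166 ± 13 CPM) and *Sod1* (389 ± 35 to 245 ± 10 CPM), and the NADPH oxidase subunit *Cyba* (501 ± 36 to 257 ± 6 CPM) fell (SD, n = 3). The NADPH oxidase gene *Nox4*, named here after its values were seen, was lower too (251, 216 and 392 against 140, 114 and 150 CPM). Among those that rose, named here after their values were seen, were the phagocyte NADPH oxidase genes *Cybb* (log2 1.31), *Ncf1* (1.89) and *Ncf4* (1.93), with adjusted p up to 3.31e-05 (edgeR). The 9 macrophage markers rose in the same comparison, and their part was not tested.

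Other Nrf2 targets showed 10 lower and 5 higher of 27 tested, with a median of -0.10. The glutathione S-transferase *Gsta2* had the largest fall, from 304 ± 17 to 82.2 ± 8.1 CPM (log2 -1.89, SE 0.11, adjusted p = 8e-09, edgeR), although its reads may be shared with the closely related *Gsta1*. *Gsta4* fell by 1.39 on the log2 scale, the carbonyl reductase *Cbr1* by 1.25 and the ferritin heavy chain *Fth1* by 0.81. Of 13 haem and iron genes, 6 were lower and 1 higher (median -0.28). Besides *Fth1*, which is on both lists, the transferrin receptor *Tfrc* fell by 1.06, the first enzyme of haem synthesis *Alas1* by 0.66 and the biliverdin reductase *Blvra* by 0.75, and the 1 higher gene was the haemoglobin-binding *Hp* (log2 2.06). *Hmox1* rose in the same mice.

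Partners and regulators of Nrf2 showed 4 higher and 2 lower of 20 (median -0.0048), a share near that of all genes, so the calls are those of single genes and not of the list. The small Maf gene *Maff* rose from 13.2 ± 3.3 to 28.8 ± 5.5 CPM (SD, n = 3, log2 1.13, adjusted p = 0.000804, edgeR). *Amer1* and *Dpp3*, both reported to bind Keap1, rose by 0.68 and 0.30 on the log2 scale, and the related factor *Nfe2l1* fell by 0.35. The fall of the 10 proximal tubule markers went with that of genes of every list, and its part in them was not tested. With library totals, which called 35.4% of all genes, the splits, higher and lower, were 7 and 1 for partners and regulators, 10 and 8 for other targets, 2 and 6 for thioredoxin, 3 and 6 for haem and iron, 2 and 9 for glutathione and 4 and 6 for superoxide.

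**Figure D5:**
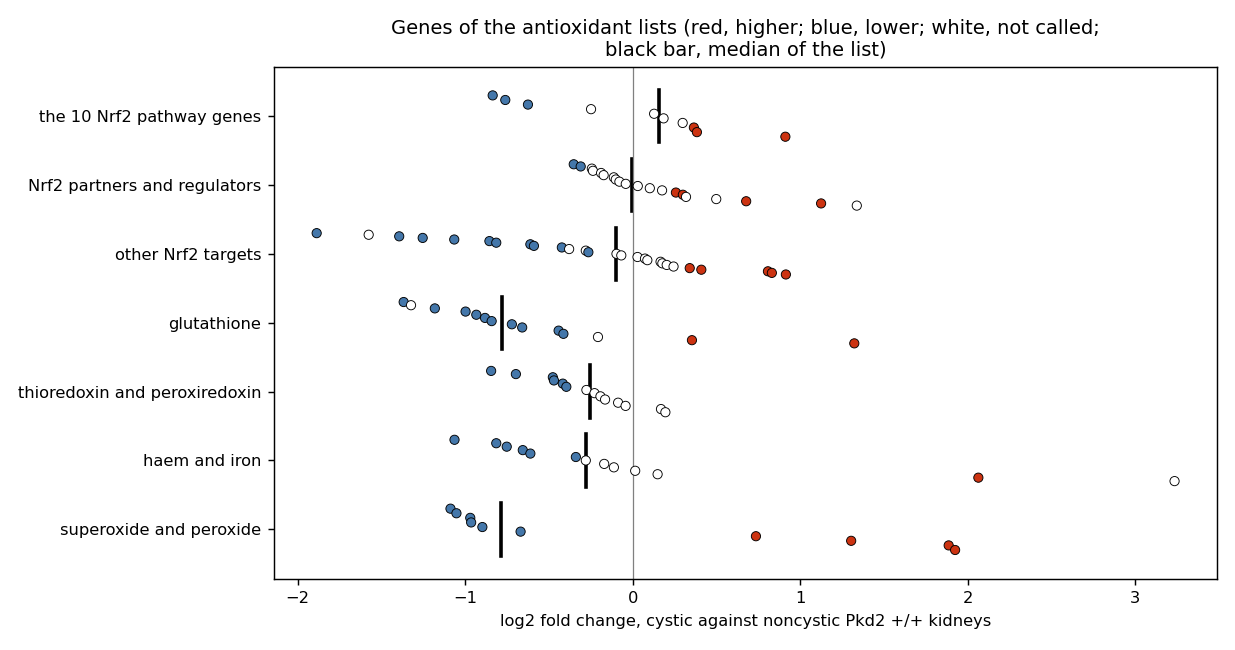
Log2 fold change of every tested gene in cystic against noncystic *Pkd2* +/+ kidneys, with 1 row for the 10 genes and 1 for each of the 6 lists; red points were called higher, blue points lower, white points were not called, and the black bar is the median. The medians of the glutathione (-0.78) and superoxide (-0.78) lists lie well left of 0, and that of the 10 genes is 0.16.

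In *Pkd2* Δ17/Δ17 mice the same lists gave, as higher and lower, 0 and 10 of 14 for glutathione, 0 and 7 of 14 for thioredoxin, 2 and 6 of 10 for superoxide, 1 and 10 of 27 for other targets, 0 and 6 of 13 for haem and iron, and 3 and 3 of 20 for partners. Of all genes 12.8% were higher and 10.2% lower (23% in all). *Ggt1* (log2 -0.79), *Gpx1* (-0.69), *Gpx3* (-1.19) and *Gpx4* (-0.80) led the glutathione list, and *Gsta2* (-1.77), *Gsta4* (-1.24), *Cbr1* (-0.95) and *Fth1* (-0.76) the other targets. *Prdx3* (-0.56), *Cat* (-0.87), *Cyba* (-0.82), *Sod2* (-0.70), *Sod3* (-0.82), *Alas1* (-0.62), *Blvra* (-0.76) and *Blvrb* (-0.48) fell as well. *Prdx5* (-0.64), *Txn2* (-0.32) and *Txnip* (-0.42) led the thioredoxin list, and among the partners *Sqstm1* (-0.35), which encodes p62, fell, while *Dpp3* (0.28), *Maff* (0.79) and *Palb2* (0.83) rose. With library totals, which called 28.4% of all genes, the splits became 1 and 8, 1 and 3, 2 and 6, 5 and 8, 0 and 4, and 8 and 0, in the same order of lists. Of the genes named from the lists, *Alas1* (7.53% of its exons), *Sqstm1* (17.3%), *Palb2* (5.64%), *Txnip* (19.4%) and *Btrc* (1.39%) overlap a gene on the other strand. Without the 2 libraries with adrenal markers 2 partners were called, 1 in each direction.

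Between the cystic groups, 1 gene of each list was called, against 2.23% of all genes. *Ggt1* was higher in *Pkd2* Δ17/Δ17 mice (334 ± 37 against 248 ± 18 CPM, log2 0.43, SE 0.09, adjusted p = 0.0199, edgeR), as were *Cbr1* (421 ± 38 against 312 ± 38 CPM, log2 0.43, adjusted p = 0.0364) and *Btrc*, a substrate adaptor of another ubiquitin ligase for Nrf2 (39.1 ± 1.0 against 30.6 ± 2.6 CPM, log2 0.36, adjusted p = 0.0342). *Hp* (log2 -2.60, adjusted p = 0.0174), *Ncf4* (-1.002, adjusted p = 0.0491) and *Txnip*, the thioredoxin-binding protein (-0.41, adjusted p = 0.0399), were lower. Without both libraries with adrenal markers the glutathione and the haem and iron lists each had 1 call, and the other 4 lists had none. The superoxide list had no call with library totals and 4 lower with DESeq2, which also called 2 of the other targets, 1 in each direction. Proximal tubule markers were called higher for 4 of 10 in the same comparison, and thick ascending limb and distal tubule markers for 2 of 6. In noncystic kidneys no gene of the 6 lists was called.

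The pattern of *Nfe2l2* over the 12 mice was most like that of *Txnrd1* among the 10 genes. The root mean square difference of their centred log2CPM values was 0.055, and it was 0.109 between *Nfe2l2* and *Keap1* and also between *Keap1* and *Txnrd1*. *Gclm* was nearest to *Osgin1* (0.187) and *Nqo1* to *Gclm* (0.198). Among 13817 other genes whose log2CPM averaged 1 or more, those nearest to *Nfe2l2* were *Tnpo2* (0.036), *Cdc42se1* (0.046) and *Ncbp2* (0.046), where the median gene was at 0.266. Those nearest to *Gclm* were *Pgpep1* (0.047), *Dram2* (0.052) and *Gm2a* (0.053), with a median of 0.393. These distances describe the same 12 libraries and carry no test.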

How the data were processed

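RNA from the right kidney of 12 mice was sequenced. Reads were trimmed by the authors (Trim Galore 0.6.3), aligned to GRCm38 with STAR 2.5.3a and counted reads per gene, and the deposited table holds these whole-number counts without normalization. Which strand was counted is not given in the sources used here. Rows without a gene name (343, at most 0.0254% of the reads) were kept in the fits and left out only of the search for genes with a like pattern.

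Genes whose log2CPM averaged -3 or more (prior count 2) were tested in R 4.3.3 with edgeR 4.0.16, by a quasi-likelihood test with TMM factors, 1 mean per group over 12 mice (8 residual degrees of freedom), Benjamini-Hochberg adjustment and a threshold of 0.05. Groups were taken from the sample titles. The edgeR standard errors were the absolute log2 fold change divided by the square root of the quasi-likelihood F statistic. The 95% intervals used these errors with a t quantile and apply to each gene singly. For well-counted genes (mean log2CPM of 1 or more) the median standard error was 0.11 on the log2 scale. In the main fit, p-values set a group difference against the spread between single mice, which was estimated over all 4 groups. CPM in the text are TMM-scaled. Levels per kb use the union of exons in GENCODE M21, which held 99.93% of the identifiers.

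The 10 genes and the lists were chosen with earlier results of these data known. Named list genes were, per list and comparison, up to 4 called genes without overlap, by adjusted p. For likeness, *Nfe2l2* and the gene with the smallest adjusted p (*Gclm*) were used. Alternatives were limma-trend (limma 3.58.1, prior count 3) on library totals, DESeq2 1.42.0, edgeR with library totals or DESeq2 size factors, no filter, filterByExpr, *Xist* as a covariate, only the groups compared, and leaving out each mouse. Leaving out the 2 libraries with adrenal markers was added after seeing the data. The fits were also run on simulated counts in which far fewer genes changed than in these data, so that run does not check the scaling. Its outcome is not given here.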

Additional observations from a re-analysis of the deposited data

Results flagged for a closer look

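*Srxn1* drew attention because every cystic mouse was above every noncystic mouse with *Pkd2* +/+ (58.2 to 65.2 against 53.8 to 57.9 CPM), whereas every cystic mouse was below every noncystic mouse with *Pkd2* Δ17/Δ17 (44.2 to 53.5 against 55.0 to 59.2 CPM). The difference between the 2 effects was -0.38 on the log2 scale (SE 0.12, 95% interval -0.63 to -0.13). Its adjusted p of 0.357 (edgeR quasi-likelihood test, unadjusted p = 0.00506) did not pass the threshold, and over 20 alternatives the adjusted p ran from 0.12 to 0.738 and the difference from -0.48 to -0.33. Of the 10 genes it was the only one whose effects had opposite directions without overlap in both genotypes. How many of all genes show this was not counted. Groups without overlap, in either direction, were found for 41.7% of all genes with *Pkd2* +/+ and 37.9% with *Pkd2* Δ17/Δ17. The rise of *Srxn1* with *Pkd2* +/+ was not called (adjusted p = 0.281, edgeR).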

How the results depend on the processing

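The sample titles give no litter or breeding pair, so no paired analysis was made and effects of litter were not tested. The numbers of the 10 genes called stayed within 1.5 times their value in every alternative for both comparisons of cystic with noncystic kidneys (6 to 8 for *Pkd2* +/+, where 6 were called, and 4 to 7 for *Pkd2* Δ17/Δ17, where 6 were called), and were 0 throughout for the deletion in noncystic kidneys and for the interaction. The share called of the genes with an adjusted p ran from 23.6% to 45.1% over the alternatives for *Pkd2* +/+ and from 17% to 34.7% for *Pkd2* Δ17/Δ17. The sets of genes differ between these ends. For *Pkd2* +/+ they were 7830 of 33191 genes without a filter and 7858 of 17425 with filterByExpr, against 7665 of 24642 in the main fit. The 34.7% is also from filterByExpr (6039 of 17425). For the deletion in cystic kidneys, where 1 was called, the number was 3 with DESeq2, 2 without a filter on low counts, 2 with *Xist* as a covariate and 0 in a fit on the cystic groups alone, and it ran from 0 to 2 when 1 mouse was left out. The share called of the genes with an adjusted p was 7.05%, 4.94%, 2.3% and 0.683% in these fits, in that order. These shares rest on unlike sets of genes. DESeq2 called 1128 genes and left part of the 24642 without an adjusted p, and the fit without a filter called 1639 of 33191. It was 0.479% to 3.46% with 1 mouse left out, against 2.23% in the main fit. The cause was not tested.

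No called difference changed direction. Uncalled differences near 0 did. In cystic kidneys the deletion effect became -0.0887 for *Gclc* and -0.0391 for *Nqo1* without the 2 libraries with adrenal markers, and -0.0130 for *Nqo1* with *Xist* as a covariate. In noncystic kidneys it became 0.00550 for *Nfe2l2* with limma-trend, 0.00576 with library totals and 0.0168 with *Xist* as a covariate, which also gave 0.000569 for *Txnrd1*. The *Slc7a11* interaction became -0.15 without the 2 libraries with adrenal markers. Leaving out 1 mouse gave ranges that cross 0 on the log2 scale for *Slc7a11* in cystic against noncystic kidneys (-0.20 to 0.54 with *Pkd2* +/+, -0.11 to 0.79 with *Pkd2* Δ17/Δ17), for the deletion in cystic kidneys in *Gclc* (-0.0604 to 0.15), *Nqo1* (-0.0302 to 0.16) and *Slc7a11* (-0.89 to 0.0567), for the deletion in noncystic kidneys in *Gclm* (-0.0610 to 0.000702), *Hmox1* (-0.11 to 0.15), *Nfe2l2* (-0.0265 to 0.00338), *Nqo1* (-0.20 to 0.00251), *Srxn1* (-0.0186 to 0.0414) and *Txnrd1* (-0.0491 to 0.0250), and for the interaction in *Keap1* (-0.0434 to 0.0884), *Osgin1* (-0.16 to 0.0449) and *Slc7a11* (-0.41 to 0.54). With 4 to 24 reads a library, *Slc7a11* is limited by depth.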
